A study of Mus musculus with 6 samples.

Results

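The eicosanoid synthesis enzymes are the proteins that release arachidonic acid and turn it into prostaglandins, leukotrienes and hydroxy fatty acids. Their RNA was followed here through 10 genes chosen by symbol: *Pla2g4a*, *Ptgs1*, *Ptgs2*, *Ptges*, *Alox5*, *Alox5ap*, *Alox12*, *Alox15*, *Lta4h* and *Ltc4s*. The deposited matrix of counts had 61880 rows, and each of the 10 symbols named 1 row. The transcripts had been assembled from the reads, and rows that share an assembled locus number can divide the reads of a gene between them. All rows of each locus were therefore also added together, which brought in 13 rows for the 10 genes (10 of 53912 loci). All 10 loci had enough counts to be tested, among 24061 loci that did.

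Samples were isolated mammary epithelial cells from the inguinal glands of female FVB/NJ mice at puberty, aged 6 to 8 weeks. There were 3 samples from transgenic *fat-1* mice and 3 from wildtype (WT) mice, and each sample pooled the glands of several animals. The transgene codes for a desaturase of the roundworm, active throughout the body, that makes *n*-3 from *n*-6 polyunsaturated fatty acids (PUFA). Both genotypes were kept lifelong on the diet of their parents, a modified AIN93G with 10% fat by weight, or 22% of energy, from safflower oil, so the comparison is of genotypes with the same *n*-6-rich food. The stage of the oestrous cycle was not determined, and the cells were released by a long enzymatic digestion.

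In cells, a cytosolic phospholipase frees arachidonic acid from membrane lipids. Cyclooxygenases convert it to prostaglandin H2, from which prostaglandin E synthases make prostaglandin E2, while lipoxygenases oxidise it to hydroxy fatty acids or, through 5-lipoxygenase and its activating protein, to leukotriene A4. Long-chain *n*-3 PUFA are alternative substrates of the same enzymes. In the mammary gland, prostaglandin E2 made by cyclooxygenase 2 is known for its links to branching, inflammation and tumor growth.

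Levels are given as CPM, the counts of the locus sum scaled to a common library total, after TMM normalization had evened out differences in composition. Values are listed in the order *fat-1* 1, 2, 3 and WT 1, 2, 3. To compare genes with each other, CPM was divided by the length in kb of all annotated exons of the gene merged together (CPM per kb). This length is the same in all samples, so the order of genes of similar level depends on it. Fold changes are *fat-1* relative to WT on the log2 scale, from the quasi-likelihood test of edgeR, and p-values are adjusted over all loci tested by the Benjamini–Hochberg procedure.

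Library totals ran from 204539059 to 232148824 counts, and the rarest of the 10 enzymes still had at least 53 counts in each sample. The labels call the samples mammary epithelial cells. Luminal and basal markers were present in all of them, but so were leukocyte markers. *Krt8*, a keratin of luminal cells, lay between 210 and 899 CPM, and *Laptm5*, a lysosomal membrane protein of leukocytes, between 215 and 484 CPM. The markers ordered the samples the same way in both genotypes. *fat-1* 1 and WT 1 were highest in luminal and basal markers, *fat-1* 3 and WT 2 were intermediate, and *fat-1* 2 and WT 3 were lowest. The mean log2(CPM + 1) of the luminal and basal markers was 6.76 and 6.75 in the first pair, 5.89 and 5.89 in the second, and 4.88 and 4.92 in the last, while the leukocyte markers were highest in the last pair (7.73 and 7.83). In bulk samples such as these, fewer cells of a type and less RNA per cell cannot be told apart.

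The sequences just upstream of the start of 4 of the enzymes are shown because their levels stood furthest apart within a branch: both cyclooxygenases, and the first and second enzymes of leukotriene synthesis. They are the 250 bases before the RefSeq start in GRCm38.p6, written 5′ to 3′ on the strand of the gene, with the motifs found in capitals. *Ptgs1* is on chromosome 2, plus strand (chr2:36230176-36230425), *Ptgs2* on chromosome 1, plus strand (chr1:150099781-150100030), *Alox5* on chromosome 6, minus strand (chr6:116461179-116461428), and *Lta4h* on chromosome 10, plus strand (chr10:93453146-93453395).
Ptgs1: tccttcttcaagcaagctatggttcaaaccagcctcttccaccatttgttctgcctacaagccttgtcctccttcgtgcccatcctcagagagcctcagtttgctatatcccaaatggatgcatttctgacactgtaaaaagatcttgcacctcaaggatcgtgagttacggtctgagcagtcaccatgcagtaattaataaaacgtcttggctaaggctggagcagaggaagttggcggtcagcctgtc
Ptgs2: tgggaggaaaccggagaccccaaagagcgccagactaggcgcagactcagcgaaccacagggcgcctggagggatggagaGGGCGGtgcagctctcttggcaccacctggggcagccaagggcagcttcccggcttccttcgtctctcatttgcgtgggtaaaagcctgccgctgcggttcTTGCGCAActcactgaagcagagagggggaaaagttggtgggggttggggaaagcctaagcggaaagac
Alox5: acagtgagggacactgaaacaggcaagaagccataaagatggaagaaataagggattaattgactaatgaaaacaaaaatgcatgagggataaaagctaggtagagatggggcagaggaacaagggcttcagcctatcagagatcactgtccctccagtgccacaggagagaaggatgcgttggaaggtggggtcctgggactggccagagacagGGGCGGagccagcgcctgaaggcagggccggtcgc
Lta4h: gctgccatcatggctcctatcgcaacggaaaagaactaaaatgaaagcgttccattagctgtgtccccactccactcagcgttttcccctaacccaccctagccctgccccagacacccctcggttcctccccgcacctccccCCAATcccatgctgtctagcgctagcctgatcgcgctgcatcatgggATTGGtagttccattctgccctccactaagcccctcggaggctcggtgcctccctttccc

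Motifs were searched on both strands: a TATA box (TATAAA), an E-box (CACGTG), a CRE half-site (TGACG), a palindrome bound by C/EBP proteins (TTGCGCAA), a GC box (GGGCGG) and a CCAAT box (CCAAT). *Ptgs2* had the C/EBP palindrome between 69 and 62 bases before its start, a motif held by 0.164% of the 32851 promoter windows of this length, and 1 GC box, held by 32.7%. *Alox5* had 1 GC box, *Lta4h* had 2 CCAAT boxes (held by 33.8% of windows), and *Ptgs1* had none of the 6 motifs. Among the other members in the RefSeq table (8 of 10), *Ptges* and *Alox12* each had 2 GC boxes. The second of the starts listed for *Pla2g4a* had the letters of a TATA box between 200 and 195 bases before it, on the strand opposite to the gene. The other shares were 12.4% for the TATA box, 6.02% for the E-box and 17.8% for the CRE half-site.

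*Ptgs2*, which encodes the inducible cyclooxygenase 2, was by far the most abundant of the enzymes. It held 77.7% to 84.3% of the counts of the 10 loci in each sample. Its mean level was 224 CPM per kb (lowest 189, highest 301), against 1.46 CPM per kb for *Ptgs1*, the constitutive cyclooxygenase 1. In the same sample, *Ptgs2* was 126 to 190 times as high as *Ptgs1* per kb (median 150), and this ratio overlapped between the genotypes (126 to 190 in *fat-1*, 128 to 186 in WT; two-sided exact permutation test, p = 0.9).

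The other genes fell into 3 tiers of level per kb. *Ptges* (17.2 CPM per kb), *Pla2g4a* (14.2) and *Lta4h* (10.1) came next. The place of *Ptges* rests on its locus sum, as the row with its symbol alone had a mean of 2.67 CPM per kb. *Ptges* and *Pla2g4a* had overlapping ranges, with *Ptges* the higher in 5 of 6 samples, and *Pla2g4a* lay above *Lta4h* in 6 of 6. *Alox5ap* (1.57 CPM per kb), *Ptgs1* (1.46), *Alox12* (0.773), *Ltc4s* (0.543) and *Alox15* (0.468) formed a lower tier in which each gene's range overlapped that of the next, although *Ptgs1* was above *Alox12* in 6 of 6 samples. *Alox5* was the lowest, at 0.10 CPM per kb, and its range (0.061 to 0.142) did not reach that of *Alox15* (0.158 to 0.776). The highest mean level among the 10 genes was thus that of the cyclooxygenase that begins prostaglandin synthesis, and the lowest that of the lipoxygenase that begins leukotriene synthesis.

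**Figure D1:**
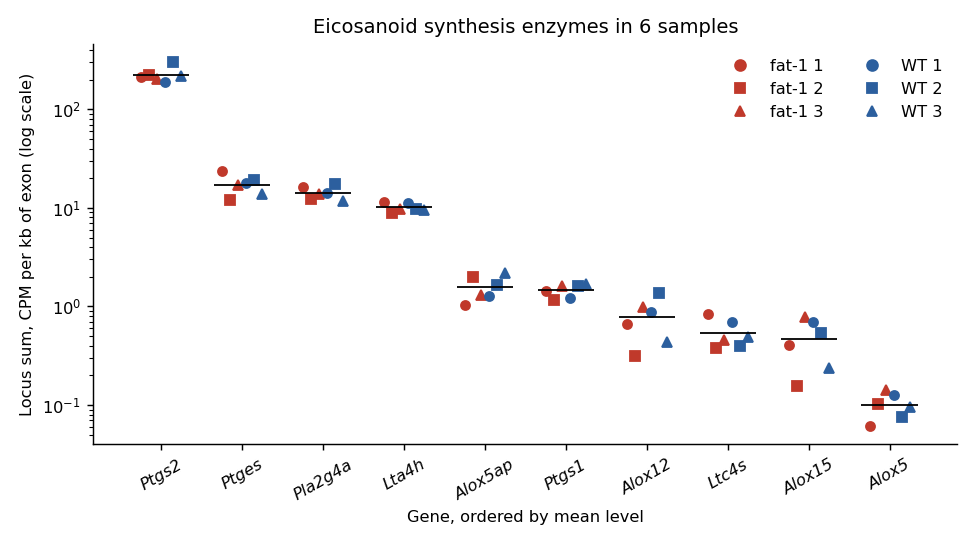
Level of each enzyme in each of the 6 samples, as CPM per kb of exon on a log axis, with genes ordered by their mean (black line). Red symbols are *fat-1* and blue symbols are WT samples, and the symbol shape gives the replicate number. *Ptgs2* stands at 189 to 301 CPM per kb and *Alox5* at 0.061 to 0.142, and red and blue symbols overlap for every gene.

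No enzyme passed the test between genotypes. Of the 10 locus sums, 0 passed 0.05 after adjustment (0.0% of all loci tested did) and 0 passed it before adjustment (1.14% of all loci did). In 0 of 10 were the samples of the genotypes apart without overlap, which was the case for 4.15% of all loci. The log2 fold change was below 0 for 7 genes and above 0 for 3, with a median of -0.07 beside 0.00 over all loci. edgeR's exact test and DESeq2, which called 6 and 8 loci among all, also called 0 of the 10. Since the samples are pools and nothing describes separate isolations, p-values measure only the spread between these samples, and an exact permutation test of 3 against 3 cannot give a two-sided p-value below 0.1.

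**Figure D2:**
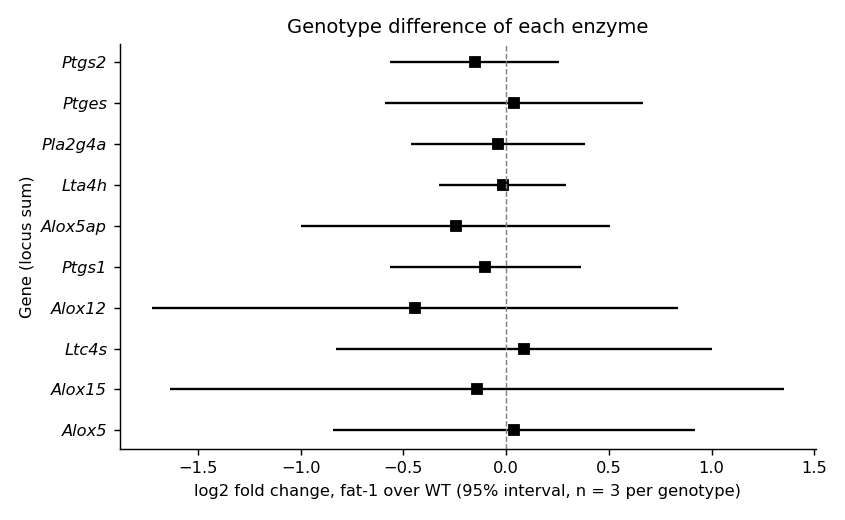
log2 fold change of each enzyme's locus sum, *fat-1* over WT (squares), with 95% intervals from edgeR's quasi-likelihood test (3 samples per genotype). All 10 intervals include 0; they are narrowest for *Lta4h* (-0.33 to 0.29) and widest for *Alox15* (-1.64 to 1.35).

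*Pla2g4a* (chromosome 1, 149829618 to 149961290, minus strand, GRCm38), the cytosolic phospholipase A2 that frees arachidonic acid, had 103, 77.8 and 87.4 CPM in *fat-1* and 90.2, 111 and 75.0 CPM in WT. The highest and the lowest values were both in WT samples. The mean was 89.6 CPM ± 13.0 in *fat-1* and 92.0 CPM ± 18.0 in WT (SD, n = 3), a log2 fold change of -0.04 (SE 0.18, 95% interval -0.46 to 0.38; adjusted p = 1.00). The interval corresponds to folds between 0.726 and 1.31.

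*Ptgs1* (chromosome 2, 36230426 to 36252272, plus strand) had 5.62, 4.52 and 6.24 CPM in *fat-1* and 4.74, 6.27 and 6.56 CPM in WT. Its samples interleaved, and the fold change was -0.10 on the log2 scale (SE 0.19). *Ptgs2* (chromosome 1, 150100031 to 150108227, plus strand) had 966, 1013 and 930 CPM in *fat-1* and 868, 1377 and 991 CPM in WT. The *fat-1* samples lay close together, within 1.09-fold, while the WT samples held both the lowest and the highest value and spanned 1.59-fold. The mean of 970 CPM ± 41.5 in *fat-1* and 1078 CPM ± 266 in WT (SD, n = 3) gave a log2 fold change of -0.15 (SE 0.17, 95% interval -0.57 to 0.26), or a fold between 0.675 and 1.20. Without WT replicate 2, the highest sample, the log2 fold change was 0.06.

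Genes of the early response to stress, a possible companion of *Ptgs2* in isolated cells, were read from a list of 8. None of the 8 passed the adjusted or unadjusted threshold, and their summed level was 1210 to 1298 CPM in *fat-1* and 1128 to 1324 CPM in WT. *Jun*, a subunit of the AP-1 transcription factor, ran from 290 to 375 CPM. The part of this response in the level of *Ptgs2* was not tested.

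The *Ptgs2* locus had a second row, without a symbol, that differed more between samples than the gene itself. This row had 0 counts in *fat-1* 1 and WT 1, and 52812, 14097, 42868 and 37263 counts in *fat-1* 2, *fat-1* 3, WT 2 and WT 3. The samples at 0 were those highest in epithelial markers, 1 of each genotype, so the split ran across the genotypes and not between them. The row with the symbol therefore held 100%, 75.7% and 92.7% of the locus in *fat-1* and 100%, 86.3% and 81.7% in WT, and on its own gave a log2 fold change of -0.14 (SE 0.18). What the row without a symbol contains cannot be read from the matrix, which gives no positions.

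*Ptges* (chromosome 2, 30889471 to 30929863, minus strand), the inducible microsomal prostaglandin E synthase, had 92.6, 46.9 and 66.6 CPM in *fat-1* and 70.4, 75.8 and 54.5 CPM in WT. The *fat-1* samples spanned 1.97-fold and enclosed all WT samples. The log2 fold change was 0.04 (SE 0.26, 95% interval -0.59 to 0.67). Most counts of the locus were in the row without a symbol, whose content cannot be read from the matrix here either. The row named *Ptges* held 19.0%, 18.6% and 10.5% of the locus in *fat-1* and 5.45%, 15.9% and 25.1% in WT. Read alone, the named row would put *Ptges* at 3.83 to 17.7 CPM, a spread wider than that of the locus sum, with a log2 fold change of 0.18 (SE 0.57).

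By locus sums per kb, which for *Ptges* include the row without a symbol, *Ptgs2* exceeded *Ptges* 8.96- to 18.5-fold and *Pla2g4a* 13.0- to 18.4-fold within samples. Neither ratio separated the genotypes (two-sided exact permutation test, p = 0.9 and p = 0.7). The steps from membrane lipid to prostaglandin E2 thus had the same order of levels in *fat-1* and WT samples for cyclooxygenase 2 over the synthase and over the phospholipase.

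**Figure D3:**
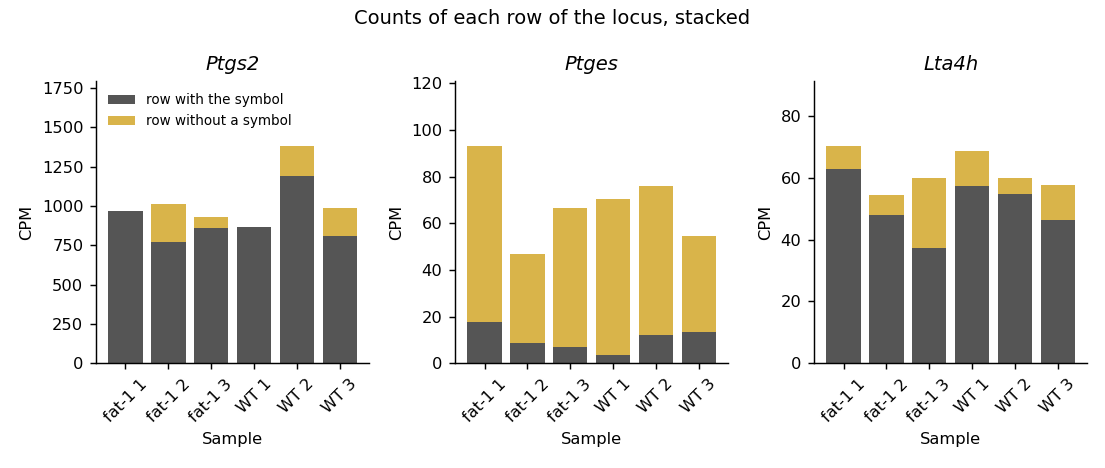
CPM of the row with the gene symbol (grey) and the row without a symbol (yellow) in each sample, stacked, for the 3 enzymes whose locus had 2 rows. The yellow part is 0 in *fat-1* 1 and WT 1 for *Ptgs2*, makes up most of every bar for *Ptges*, and is largest in *fat-1* 3 for *Lta4h*.

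*Alox5* (chromosome 6, 116410077 to 116461178, minus strand), the 5-lipoxygenase, had 53, 90 and 121 counts in *fat-1* and 111, 71 and 80 counts in WT, or 0.251, 0.419 and 0.582 CPM against 0.519, 0.313 and 0.389 CPM. Both ends of the range were in *fat-1* samples, and the log2 fold change was 0.04 (SE 0.36). *Alox5ap* (chromosome 5, 149264767 to 149288153, plus strand), the membrane protein that presents arachidonic acid to 5-lipoxygenase, had 1.46, 2.81 and 1.85 CPM in *fat-1* and 1.81, 2.37 and 3.07 CPM in WT. The samples richest in leukocyte markers, *fat-1* 2 and WT 3, were the highest of each genotype. Its log2 fold change was -0.25 (SE 0.31, 95% interval -1.0 to 0.50). Per kb, *Alox5ap* stood 9.18 to 22.8 times above *Alox5* in the same sample. An antisense transcript, *Gm19719*, shares 189 of the 1420 exon bases of *Alox5ap*, and its 5 to 25 counts per sample are few beside the 307 to 631 of *Alox5ap*.

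*Lta4h* (chromosome 10, 93453411 to 93484875, plus strand), the hydrolase that makes leukotriene B4, had 69.8, 54.2 and 60.0 CPM in *fat-1* and 68.7, 59.7 and 57.8 CPM in WT. It was the steadiest of the 10 genes, with a highest value 1.29 times the lowest, a smaller spread than that of all but 23.6% of loci. Its log2 fold change was -0.02 (SE 0.13), with an interval of folds from 0.797 to 1.22. The row with its symbol held 89.7%, 88.0% and 62.0% of the locus in *fat-1* and 83.5%, 91.5% and 80.3% in WT. The spread of that row was wider than that of the sum, with 37.1 CPM in *fat-1* 3 against 62.8 CPM in *fat-1* 1, and its log2 fold change was -0.10 (SE 0.22).

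*Ltc4s* (chromosome 11, 50236461 to 50238616, minus strand), the synthase that joins glutathione to leukotriene A4, had 0.853, 0.387 and 0.462 CPM in *fat-1* and 0.706, 0.406 and 0.491 CPM in WT. *fat-1* 1 and WT 1 were the highest of their genotypes, and the log2 fold change was 0.09 (SE 0.38). These values rest on 83 to 180 counts, and the antisense transcript *Gm26542*, which shares 268 of the 1014 exon bases of *Ltc4s*, had 104 to 169 counts. Because the use of strand in counting is not stated, the level of *Ltc4s* is uncertain. *Lta4h* was 13.6 to 24.4 times as high as *Ltc4s* per kb and 69.4 to 187 times as high as *Alox5*, so in all 6 samples the second enzyme of the leukotriene B4 branch far exceeded the first in RNA.

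*Alox12* (chromosome 11, 70241457 to 70255353, minus strand), the platelet-type 12-lipoxygenase, had 2.70, 1.29 and 4.04 CPM in *fat-1* and 3.57, 5.56 and 1.79 CPM in WT. *Alox15* (chromosome 11, 70344152 to 70352031, minus strand), the 12/15-lipoxygenase, had 0.991, 0.387 and 1.90 CPM in *fat-1* and 1.70, 1.32 and 0.584 CPM in WT. Both were lowest in *fat-1* 2 and WT 3, the samples lowest in epithelial and highest in leukocyte markers, and *Alox12* was highest in the intermediate samples. They were also the most variable of the 10 genes: the highest sample exceeded the lowest 4.31-fold for *Alox12* and 4.92-fold for *Alox15*, more than for 91.6% and 93.8% of loci. Over all loci without a count of 0 the median of this ratio was 1.72.

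The log2 fold changes were -0.45 for *Alox12* (SE 0.53, 95% interval -1.73 to 0.83) and -0.14 for *Alox15* (SE 0.62, 95% interval -1.64 to 1.35). These intervals run from 0.302- to 1.78-fold and from 0.322- to 2.56-fold. Within samples, *Alox12* was 1.26 to 2.52 times as high as *Alox15* per kb, with no separation of the genotypes.

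Cells that are known for these lipoxygenases and for leukotriene C4 synthase were read from their markers. Of the 6 mast cell markers, 0 passed either threshold, and their sum was 51.2 to 73.8 CPM in *fat-1* and 68.6 to 102 CPM in WT. *Kit* was the largest part of this sum in every sample, at 24.6 to 44.7 CPM. It did not follow the other markers in *fat-1*. There *Kit* was highest in *fat-1* 1 (36.8 CPM), the sample with the lowest values of *Cpa3*, *Mcpt4*, *Cma1* and *Tpsb2*. The sum is therefore not a reading of 1 shared pattern. All 6 markers had a log2 fold change below 0 (median -0.48), and the protease *Mcpt4* had 5.79, 10.8 and 14.6 CPM against 23.3, 12.7 and 15.5 CPM. The 5 eosinophil markers summed to 3.17 to 6.07 CPM in *fat-1* and 3.91 to 5.50 CPM in WT, and none of the 4 tested passed either threshold. *Ccr3* (0.825 to 2.30 CPM), *Il5ra* (1.11 to 2.67) and *Prg2* (0.652 to 1.36) were detected in every sample, while *Siglecf* was at 0 in 4 of 6 samples and *Epx* at 0.130 CPM or less. The neutrophil list of 6 markers summed to 19.1 to 46.1 CPM in *fat-1* and 21.1 to 33.0 CPM in WT, with none past either threshold and *S100a9* the highest (9.09 to 25.6 CPM). Of the 5 platelet markers none passed either threshold, and the sum (137 to 434 CPM in *fat-1*, 243 to 604 CPM in WT) was mostly that of the locus of *Ppbp*, which also holds *Cxcl5*. *Itga2b*, an integrin of platelets, had 7.59 to 10.6 CPM, *Pf4* 1.16 to 3.43, *Gp1ba* 0.936 to 2.09 and *Gp9* 0.092 to 0.137. The part of these cells in the levels of the enzymes was not tested.

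The level of each enzyme was then set beside the markers of the cells in the sample, in a family of 20 relations over the 6 samples. *Lta4h* had the largest r with the epithelial markers. It was 69.8 and 68.7 CPM in the samples highest in luminal and basal markers, 60.0 and 59.7 CPM in the intermediate samples, and 54.2 and 57.8 CPM in the lowest. Pearson's r with the luminal and basal markers was 0.95 (two-sided exact permutation p = 0.00556, adjusted p = 0.0972) and Spearman's rho 0.943 (permutation p = 0.0167, adjusted p = 0.111), and leaving out the 2 samples farthest from the median gave r = 0.997. *Ptges* also had higher values in samples with more of the same markers (r = 0.879, permutation p = 0.025, adjusted p = 0.1; rho = 0.943, permutation p = 0.0167, adjusted p = 0.111), but r was 0.519 without *fat-1* 2 and WT 3, the samples that carried much of the relation. *Ltc4s* had r = 0.799 with these markers (permutation p = 0.0722, adjusted p = 0.181; rho = 0.771, permutation p = 0.103, adjusted p = 0.228) and 0.959 without the same samples. *Pla2g4a* had r = 0.701 (permutation p = 0.142, adjusted p = 0.282; rho = 0.771, permutation p = 0.103, adjusted p = 0.228), which was -0.0867 without them and so rests on them.

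*Alox5ap* ran the other way, from 1.46 and 1.81 CPM in the samples highest in epithelial markers to 2.81 and 3.07 CPM in the lowest. Its r with the luminal and basal markers was -0.927 (exact permutation p = 0.0167, adjusted p = 0.0972; rho = -0.886, permutation p = 0.0333, adjusted p = 0.111), and -0.734 without the 2 samples farthest from the median. With the leukocyte markers its r was 0.819 (permutation p = 0.0639, adjusted p = 0.181; rho = 0.943, permutation p = 0.0167, adjusted p = 0.111), falling to 0.245 without the same 2 samples, so this relation rests on them. *Ptges*, *Lta4h* and *Pla2g4a* had r of -0.895, -0.858 and -0.861 with the leukocyte markers (permutation p = 0.0194, 0.0194 and 0.0361, adjusted p = 0.0972, 0.0972 and 0.12; rho = -0.886, -0.886 and -0.829, permutation p = 0.0333, 0.0333 and 0.0583, adjusted p = 0.111, 0.111 and 0.167). Without the 2 farthest samples these were -0.661, -0.755 and -0.497.

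None of the 20 relations passed the adjusted threshold of 0.05. The luminal and basal markers fall into 3 pairs of samples, each with 1 sample of each genotype, so r with them rests on 3 levels. Without the 2 farthest samples it rests on only 2 levels, so a large r there says little. The same markers fall as the leukocyte markers rise (r = -0.949), so the 2 marker lists cannot be told apart as companions of an enzyme. *Ptgs2* had a small r with both lists over the 6 samples (r = -0.07 with leukocyte and -0.23 with luminal and basal markers, permutation p = 0.997 and 0.731, adjusted p = 0.997 and 0.877; rho = 0.371 and -0.429, permutation p = 0.497 and 0.419, adjusted p = 0.585 and 0.559). Without WT replicate 2 these became 0.694 and -0.743, so they depend on that sample. *Alox12* and *Alox15* were lowest at the epithelial-poor end. The highest sample of each was not at the other end, although within WT *Alox15* was highest in WT 1. Without the 2 farthest samples their r with the luminal and basal markers turned from 0.589 and 0.703 to -0.815 and -0.401 (permutation p over all 6 samples 0.231 and 0.122, adjusted p = 0.329 and 0.272; rho = 0.486 for both, permutation p = 0.356, adjusted p = 0.559). No batch is named in the labels, and 3 samples per genotype are too few for r within a genotype.

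**Figure D4:**
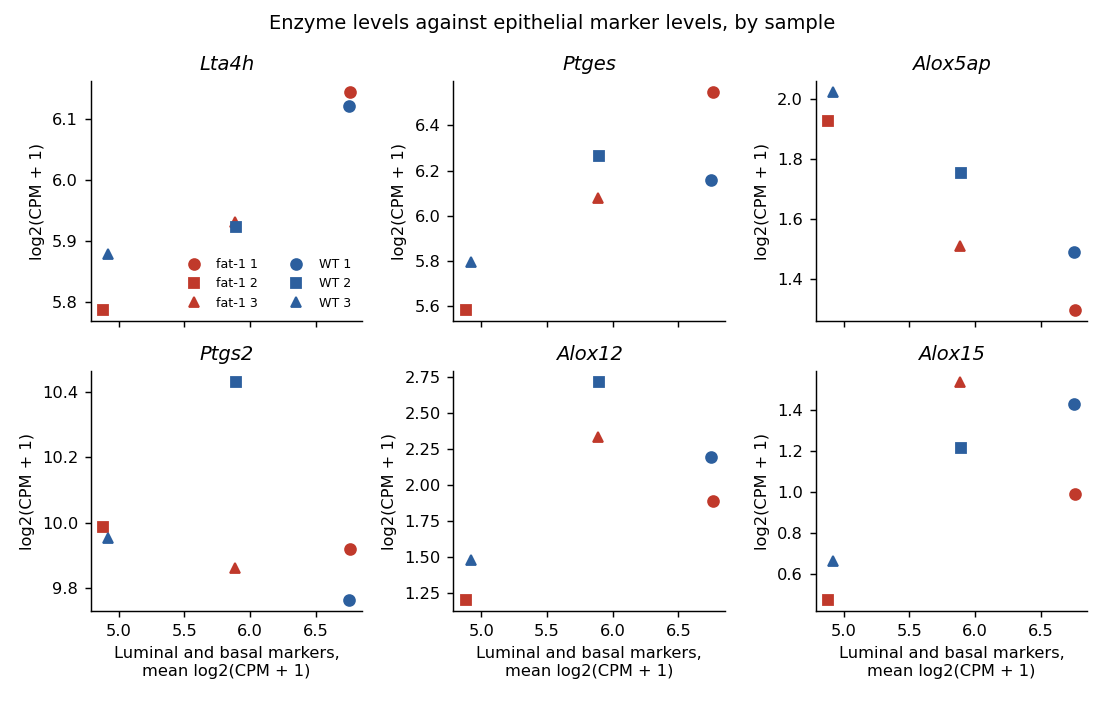
log2(CPM + 1) of 6 enzymes against the mean log2(CPM + 1) of luminal and basal markers, 1 point per sample (red *fat-1*, blue WT, shape for the replicate number). *Lta4h* and *Ptges* rise to the right, *Alox5ap* falls, *Ptgs2* is highest in WT 2, at an intermediate marker level, and *Alox12* and *Alox15* are lowest in the 2 samples at the left. Each panel has its own vertical axis, which does not start at 0.

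With the epithelial marker level added as a covariate to the test between genotypes, 0 of the 10 enzymes were called. The lowest unadjusted p-value was then 0.0759, for *Alox5ap*. It was lower in the *fat-1* than in the WT sample in 3 of 3 pairs of like luminal and basal marker level (1.46 against 1.81 CPM, 1.85 against 2.37 CPM and 2.81 against 3.07 CPM). The same was true of *Alox12* (2.70 against 3.57 CPM, 4.04 against 5.56 CPM and 1.29 against 1.79 CPM). The intermediate pair was less alike in leukocyte markers, with a mean log2(CPM + 1) of 7.29 in *fat-1* 3 and 6.76 in WT 2. None of the other enzymes ran the same way in all 3 pairs, and the share of all loci that do was not determined. These pairs were formed after the values were seen and were not tested, so no genotype difference is read from them.

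The rest of the eicosanoid pathway was read from 7 lists with 58 further genes, of which 57 were matched and tested. As for the 10 enzymes, 0 of 57 passed the adjusted and 0 of 57 the unadjusted threshold as locus sums, and the median log2 fold change was -0.06. In 2 of 57 the genotypes did not overlap. *Pla2g7*, which breaks down platelet-activating factor, had 14.4, 13.7 and 12.7 CPM in *fat-1* and 17.4, 16.5 and 15.2 CPM in WT, a log2 fold change of -0.27 (unadjusted p = 0.0503, adjusted p = 1.00). *Pla2g4b* was the other, with a log2 fold change of 0.22 (unadjusted p = 0.14), and its locus also holds *Jmjd7*. A share of 2 in 57 is not above the 4.15% found over all loci.

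Of the 19 other phospholipases and lipases (median log2 fold change -0.06), the highest per kb were *Pla2g12a*, whose locus also holds *Casp6*, at 5.96 CPM per kb and *Pla2g6*, the calcium-independent phospholipase A2, at 5.42. *Acsl4*, which activates arachidonic acid for return to lipids, and *Mboat7*, which puts it back into phosphatidylinositol, led the 4 genes of re-esterification (median 0.03) at 25.4 and 21.8 CPM per kb, above *Pla2g4a*, and the locus of *Mboat7* also holds *Leng1* and *Tmc4*. Of the 9 other prostanoid synthases (median 0.01), *Ptges3*, a cytosolic prostaglandin E synthase that is also the Hsp90 co-chaperone p23, stood at 126 CPM per kb, above *Ptges* at 17.2, and *Cbr1* at 12.7. *Ptges3* varied little, with 321, 269 and 262 CPM in *fat-1* and 291, 291 and 245 CPM in WT.

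By mean CPM per kb the other lipoxygenases were below *Alox12* (0.773), with *Aloxe3* at 0.652 and *Alox8* at 0.111. Without division by exon length, *Aloxe3* had a higher mean than *Alox12* (4.17 against 3.16 CPM). The median log2 fold change of the 4 genes was -0.34, with none past either threshold. Among the 9 cofactors and further steps of leukotriene synthesis (median -0.01), *Cotl1*, the coactosin-like protein that binds 5-lipoxygenase, had 61.9 CPM per kb and *Dpep1*, which cleaves leukotriene D4, 15.2. Of the 5 epoxygenases and epoxide hydrolases matched (median -0.16), *Ephx1* had 32.3 and *Cyp1b1* 28.6 CPM per kb. Over the 6 samples, *Cyp1b1* ran from 73.7 CPM (*fat-1* 2) to 257 CPM (WT 1) and *Ephx1* from 43.5 CPM (WT 3) to 115 CPM (*fat-1* 1). Samples of the same genotype also differed. *Cyp1b1* had 73.7 CPM in *fat-1* 2 and 193 CPM in *fat-1* 3, and *Ephx1* had 43.5 CPM in WT 3 and 78.9 CPM in WT 1.

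Among the 7 genes of prostaglandin breakdown and transport (median -0.05), *Abcc1*, an exporter of leukotriene C4, had 46.5 CPM per kb and *Zadh2*, a prostaglandin reductase, 17.4. *Abcc4*, an exporter of prostaglandin E2, was the sole gene of the 57 with a row at an unadjusted p-value under 0.05. Its row with the symbol had a log2 fold change of -0.78 by the quasi-likelihood test of edgeR (unadjusted p = 0.032), and an adjusted p of 1.00. A share of 1 row in 57 is not above the 2.21% of all rows that reach the unadjusted threshold. Its locus sum had 72.1, 94.2 and 129 CPM in *fat-1* and 85.9, 152 and 117 CPM in WT, a log2 fold change of -0.27 (unadjusted p = 0.372). The samples of the locus sum overlap.

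**Figure D5:**
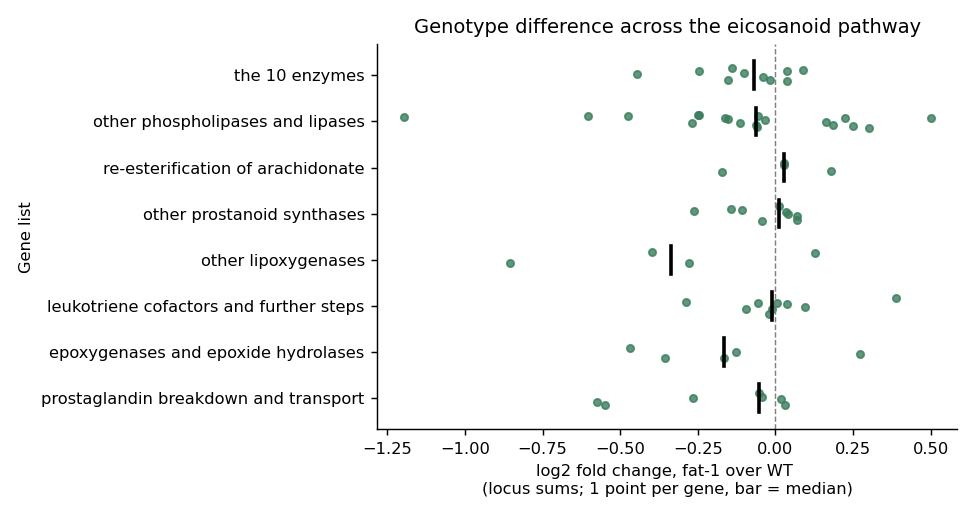
log2 fold change, *fat-1* over WT, of the locus sums of the 10 enzymes and of 57 further genes in 7 lists of the pathway (1 point per gene, vertical bar for the median of the list). The medians lie between -0.34 (other lipoxygenases, 4 genes) and 0.03 (re-esterification, 4 genes), and no point passed the test.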

How the data were processed

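RNA from 3 *fat-1* and 3 WT pooled samples was sequenced as paired-end reads. The authors mapped reads to GRCm38 with HISAT2 and assembled and quantified transcripts with StringTie; the deposited matrix holds estimated counts as whole numbers without normalization. The tool versions, the annotation, the use of strand and the way coverage was turned into counts are not given in the sources used here. Groups were taken from the labels, and no value column was without a sample.

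Rows with the same locus number were added together. Locus sums, and single rows beside them, were tested in R 4.3.3 by quasi-likelihood with edgeR 4.0.16 (filterByExpr, TMM, genotype alone, the newer fit), adjusted by Benjamini–Hochberg, at a threshold of 0.05. The SE was obtained by dividing the log2 fold change by the root of F. The test was tried on simulated counts. With the spread of the real samples it recovered 65.8% of 190 locus sums changed 4-fold (23428 loci tested, 9 unchanged loci called). For rows it recovered 0.515% of 194 changed rows (30005 rows tested, 2 unchanged rows called). With a coefficient of variation of 0.15 it recovered 99.0% of changed loci and 98.0% of changed rows. There, 6 unchanged loci and 13 unchanged rows were called. Gene positions and exon lengths were from GENCODE release M21, with 158 of 159 symbols matched. Permutation tests and correlations used log2(CPM + 1), exact and two-sided. Alternatives were other normalizations, no filter, the older fit, edgeR's exact test, DESeq2 1.42.0, a replicate block, an epithelial covariate, pseudocounts of 0.1 and 5 and leaving out each sample.

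The members and lists were chosen with earlier results of these data known. Named genes were all members, pathway genes with an unadjusted p at or under 0.05 in either fit, the 2 highest per kb of each pathway list and, for each member, the 2 loci of at least 10 CPM with the highest r. Of each marker list the rule takes the 2 highest genes, of which the text gives a part; *Pla2g7*, *Pla2g4b*, *Siglecf*, *Epx*, *Prg2*, *Pf4*, *Gp1ba* and *Gp9* were named after their values were seen. The effect of depth was not tested. Summaries used pandas 2.3.3, scipy 1.17.1, numpy 2.4.6 and Python 3.11.15, and plots matplotlib 3.10.9.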

Additional observations from a re-analysis of the deposited data

How the results depend on the processing

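None of the 10 enzymes was called under any of the 15 alternatives for the locus sums or the 14 for the rows with a symbol. Over all loci, 0 passed 0.05 after adjustment with the quasi-likelihood test (274 before adjustment), against 6 by edgeR's exact test, 8 by DESeq2 and 0 to 1 with a sample left out. The unadjusted count became 579 with no filter, 583 with the epithelial covariate and 204 to 542 with a sample left out. Over rows, 0 passed (678 unadjusted), against 32 by the exact test, 93 by DESeq2 and 0 to 2 with a sample left out, and the unadjusted count was 1136 with no filter, 1028 with the covariate and 635 to 986 with a sample left out. The cause was not tested.

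Of 150 log2 fold changes of locus sums under alternatives, 15 changed sign, with none past the threshold. That of *Ptges* was -0.0040 with the epithelial covariate. With a sample left out, the values ran from -0.16 to 0.12 for *Pla2g4a*, -0.23 to 0.0175 for *Ptgs1*, -0.28 to 0.0615 for *Ptgs2*, -0.23 to 0.25 for *Ptges*, -0.28 to 0.31 for *Alox5*, -0.55 to -0.02 for *Alox5ap*, -0.87 to -0.0025 for *Alox12*, -0.81 to 0.26 for *Alox15*, -0.11 to 0.0634 for *Lta4h* and -0.32 to 0.34 for *Ltc4s*. The rows with the symbol gave -0.16 to 0.12 for *Pla2g4a*, -0.23 to 0.0201 for *Ptgs1*, -0.25 to 0.0466 for *Ptgs2*, -0.32 to 0.48 for *Ptges*, -0.274 to 0.304 for *Alox5*, -0.80 to 0.267 for *Alox15*, -0.30 to 0.0674 for *Lta4h* and -0.325 to 0.342 for *Ltc4s*. The differences of the exact permutation tests changed sign for *Ptges* with a pseudocount of 5 (0.000308) and *Alox5* with 0.1 (-0.0028). With a sample left out, r with the leukocyte markers ran from -0.282 to 0.706 for *Ptgs1*, -0.366 to 0.694 for *Ptgs2* and -0.0872 to 0.572 for *Alox5*, and r with the luminal and basal markers from -0.824 to 0.215, -0.743 to 0.0319 and -0.415 to 0.416. The other relations kept their sign.

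Same-numbered samples deviated from their group means together with correlations of 0.80, -0.16 and 0.13. The replicate numbers thus put *fat-1* 1 with its best match, WT 1, but did not do so for the other samples. *fat-1* 2 correlated best with WT 3 (0.79) and *fat-1* 3 with WT 2 (0.37). With a replicate block, 0 loci passed the adjusted and 376 the unadjusted threshold (784 rows).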

Other observations

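For each enzyme, the loci of other genes whose level was most alike over the 6 samples were taken from 9125 loci with a mean of at least 10 CPM, by Pearson's r of log2(CPM + 1), as a description without a test. *Ptges* was most like *S100a10*, an annexin partner (r = 0.998), and *Pgrmc1* (r = 0.995). *Lta4h* was most like *Copg2*, a coatomer subunit (r = 0.998), and *Zfp771* (r = 0.997). *Ltc4s* was most like *Smarcc2*, a chromatin remodeler subunit (r = 0.998), and the SNARE *Vamp8* (r = 0.996). *Alox12* was most like the locus shared by *Kremen1* and *Znrf3*, inhibitors of Wnt signaling (r = 0.998), and the chaperone *Hyou1* (r = 0.988), and *Alox15* like *Lifr*, the receptor of leukemia inhibitory factor (r = 0.995), and the locus of *Repin1* and *Zfp775* (r = 0.989). *Pla2g4a* was most like *Plcb4* (r = 0.991) and *Sgpl1* (r = 0.988), and *Alox5ap* like *Cisd2* (r = 0.979) and *Angpt2* (r = 0.977).

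*Ptgs2* was most like *Dnajb6*, a co-chaperone (r = 0.971), and *Uba6* (r = 0.963), and 3 of the 9125 loci reached r = 0.95 with it. The same count was 3 for *Ptgs1*, which was most like *Timm50* (r = 0.975) and *Prdx1* (r = 0.968), and 3 for *Alox5*, which was most like *Slc25a46* (r = 0.982) and *Proser1* (r = 0.968). It was 544 for *Lta4h*, 189 for *Ltc4s* and 151 for *Ptges*. All points share the same 6 libraries.

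Fibroblast markers were compared with the enzymes after the data had been seen, in a family of 10 relations. None passed the adjusted threshold. The largest r was -0.864, for *Ltc4s* (exact permutation p = 0.0556, adjusted p = 0.556; rho = -0.6, permutation p = 0.242, adjusted p = 0.699), and leaving out the 2 samples farthest from the median gave r = -0.669.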
